A study of Mus musculus with 15 samples.

Results

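Phagocytes kill by a respiratory burst, in which the NADPH oxidase of the phagosome and plasma membrane passes electrons from NADPH to oxygen and makes superoxide. The enzyme is built from a membrane heterodimer, the catalytic subunit Cybb (gp91phox, NOX2) and its partner Cyba (p22phox), onto which a cytosolic complex that includes Ncf1 and Ncf4 and the GTPase Rac2 dock when the cell is stimulated. The proton channel Hvcn1 carries out the protons that balance the exported electrons, superoxide dismutases turn superoxide into hydrogen peroxide, and catalase breaks the peroxide down.

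The expression of 9 genes of this system was examined in tumor-associated macrophages (TAMs): Cybb, Cyba, Ncf1, Ncf4, Rac2, Hvcn1, the oxidase homolog Nox1, the mitochondrial superoxide dismutase Sod2 and catalase, Cat. The genes were picked by their symbols, and each matched 1 of the 55335 gene rows of the expression table. Of the 9, 8 had a mean of at least 1 FPKM over all samples and entered the test across 11419 genes, whereas Nox1 did not. FPKM is the number of sequenced fragments of a gene, divided by transcript length and by the fragments mapped in the sample, so that levels of different genes can be set side by side.

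The TAMs came from C57BL/6 mice with orthotopic HCC, grown from Hepa1-6 hepatoma cells injected into the liver, and were sorted on CD11b and F4/80. There were 3 groups of 5 samples: TAMs of tumors from control HCC cells, from HCC cells with miR-144 overexpression and from HCC cells with miR-451a overexpression. The miRNAs were delivered to the tumor cells by lentivirus, so the macrophages of all groups were those of the host, and the tumor cells of the model also carried luciferase. The labels do not give the age or sex of the mice or the number of mice behind a sample. The study describes fewer replicates per group for this sequencing than the labels list, and which samples come from separate mice is not given in the sources used here. The p-values therefore measure the spread between these samples, which may be technical.

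The miRNAs that set the groups apart are shown with the seed, bases 2 to 8, in capitals. The labels do not name the arm of miR-144, so both are given. The sequences are those of RefSeq (GRCm38.p6, chromosome 11, plus strand).
mmu-miR-144-5p: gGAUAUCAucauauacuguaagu
mmu-miR-144-3p: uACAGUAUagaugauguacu
mmu-miR-451a: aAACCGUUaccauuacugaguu
The 3 seeds differ, so none of these miRNAs share a seed.

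For the genes of the membrane heterodimer and for Ncf1, the 250 bases before the transcription start are shown, because Cybb and Cyba form the heterodimer and moved in opposite directions, and Ncf1 binds to it. The sequences are from RefSeq (GRCm38.p6), which held an entry for 6 of the 9 genes (Cybb, Cyba, Ncf1, Nox1, Sod2 and Cat). Capitals mark matches on either strand to the core of the interferon response element (GAAA, any 2 bases, GAAA) or to GAGGAA, the purine box that the macrophage factor PU.1 binds.
Cybb (chrX:9469325-9469574, minus strand): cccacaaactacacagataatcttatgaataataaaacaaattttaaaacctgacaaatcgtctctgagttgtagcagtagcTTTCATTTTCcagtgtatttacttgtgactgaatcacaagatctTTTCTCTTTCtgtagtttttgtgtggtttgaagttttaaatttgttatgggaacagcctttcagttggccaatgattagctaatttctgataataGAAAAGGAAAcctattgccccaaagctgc
Ncf1 (chr5:134229626-134229875, minus strand): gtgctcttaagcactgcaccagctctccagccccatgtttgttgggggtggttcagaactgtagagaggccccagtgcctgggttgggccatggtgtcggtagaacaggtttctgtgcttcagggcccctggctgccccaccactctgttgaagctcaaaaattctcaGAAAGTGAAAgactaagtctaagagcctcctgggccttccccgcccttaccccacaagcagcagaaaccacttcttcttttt
Cyba (chr8:122432941-122433190, minus strand): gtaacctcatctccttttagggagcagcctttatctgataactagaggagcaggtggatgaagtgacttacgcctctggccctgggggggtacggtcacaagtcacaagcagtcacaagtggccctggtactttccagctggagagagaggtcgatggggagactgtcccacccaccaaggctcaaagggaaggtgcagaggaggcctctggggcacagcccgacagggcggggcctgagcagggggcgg
The Cybb window held 3 matches to the interferon response element core, at -168, -124 and -29 from the start, and the Ncf1 window held 1, at -82. The windows of Cyba, Nox1, Sod2 and Cat held none. Of 32851 promoters of the same length, 2.98% held it. GAGGAA lay in the windows of Cat, Sod2 and Nox1, and in 23.3% of all promoters. The RefSeq start used for Cybb lies inside the longer span that GENCODE M21 gives the gene. No matches overlapped. These are matches of letters and were not tested as binding sites.

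All 6 macrophage markers were expressed in all samples, with Csf1r between 393 and 727 FPKM and Cd68 between 835 and 1504 FPKM over the 15 samples. Depth is not given with FPKM, and the steps between low values implied 15.6 to 30.5 M fragments per sample. This range is approximate, since 51.5% to 61.8% of low values lay within 0.05 of a whole step, where 10% would by chance. No sample stood apart, with correlations across genes from 0.9818 to 0.9926 within groups, 0.9813 to 0.9900 between miR-144 and miR-451a samples and 0.9003 to 0.9245 between control and miRNA samples. The miRNA groups differed from control in most of the transcriptome. In limma, the threshold of 0.05 on the adjusted p was passed by 67.2% of genes with miR-144 (47.1% higher, 20.1% lower) and by 68.3% with miR-451a (48.1% higher, 20.3% lower), and the median gene was higher by 0.13 and 0.14 on the log2 scale. Both comparisons use the same 5 control samples.

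Against this background, 7 of the 8 tested genes passed in each comparison with control, 4 higher (Cybb, Ncf1, Rac2 and Cat) and 3 lower (Cyba, Ncf4 and Hvcn1), while Sod2 did not pass. The share that passed, 7 of 8, is to be read beside the 67.2% and 68.3% of all genes. Control and miR-144 samples were fully separated in 8 of 8 genes and control and miR-451a samples in 7 of 8, beside 53.9% and 55.2% of all genes. The 7 calls also held after median centring of the samples, where 30.8% of all genes were called higher and 30.7% lower with miR-144 (31.3% and 31.8% with miR-451a). They held as well after rescaling to TPM, where 53.7% were called higher and 16.4% lower with miR-144 (55.6% and 16.3% with miR-451a). With a log2 fold change of at least 0.5 asked as well, 5 of 8 genes passed with miR-144 (not Ncf1 or Ncf4) and 6 of 8 with miR-451a (not Ncf4), beside 22.8% and 24.5% of all genes. Over the 8 genes, the log2 fold changes had a median of 0.20 (miR-144) and 0.22 (miR-451a) and a range from -1.45 to 0.75 and from -1.46 to 0.72. Thus the RNAs of subunits of a single enzyme complex moved in opposite directions.

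**Figure D1:**
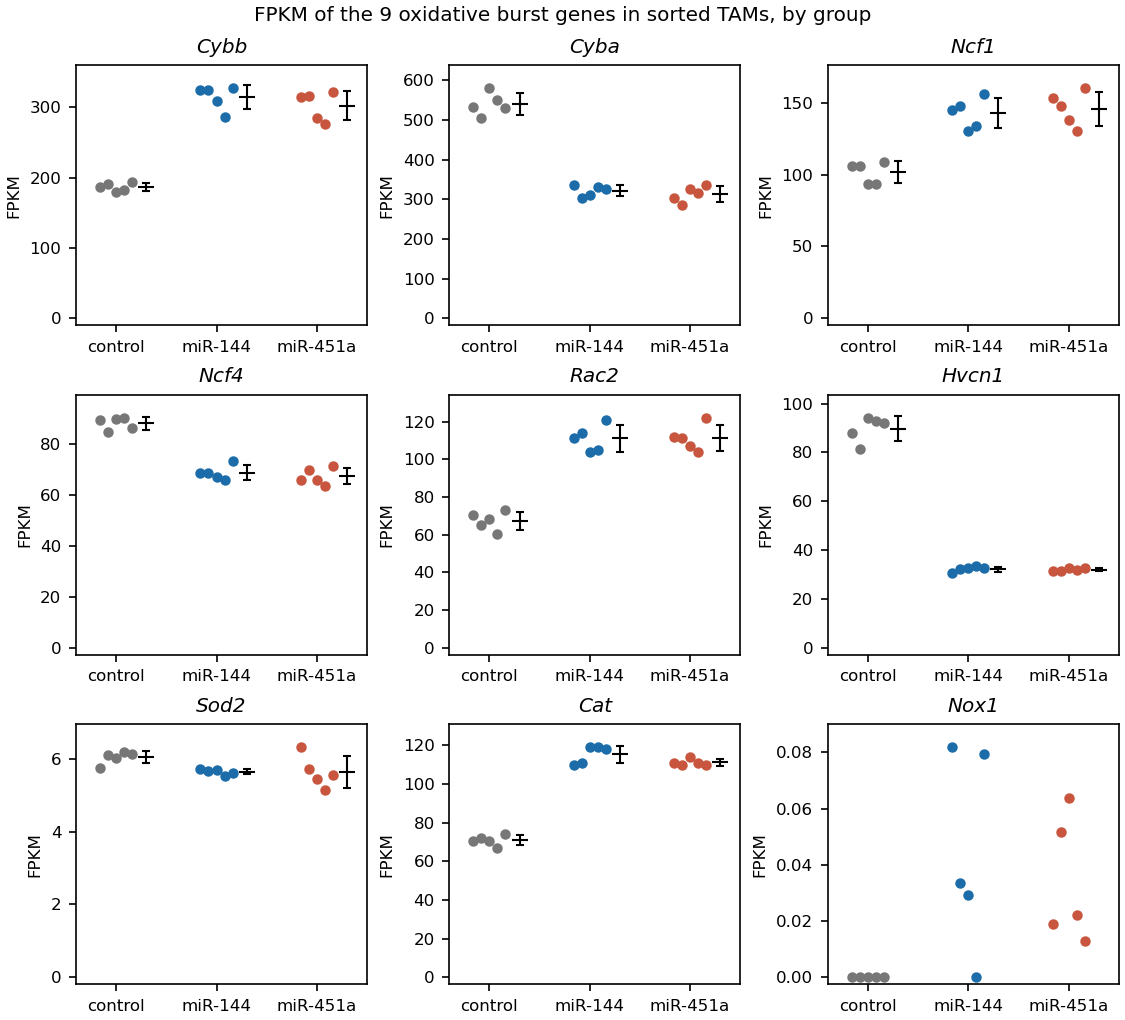
FPKM of each gene (vertical axis, linear and starting at or just under 0) in the 5 samples of each group (points, ordered by sample number within a group), with the group mean and SD beside them in black. Cybb, Ncf1, Rac2 and Cat sit higher in all 10 miRNA samples than in any control sample, Cyba, Ncf4 and Hvcn1 sit lower, and Nox1, drawn without mean and SD, stays under 0.1 FPKM.

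Cybb, the catalytic subunit, was higher in TAMs of both miRNA groups. The gene (ENSMUSG00000015340) lies on chromosome X, 9435252 to 9487771, minus strand. All positions are those of GENCODE M21 on GRCm38. In samples 1 to 5 it had 186, 191, 179, 183 and 194 FPKM in control TAMs, 324, 325, 309, 286 and 327 FPKM with miR-144, and 314, 316, 284, 276 and 321 FPKM with miR-451a. The lowest miRNA sample was thus far above the highest control sample. The means were 187 ± 6.15, 314 ± 17.3 and 302 ± 20.6 FPKM (SD, n = 5 each), with log2 fold changes of 0.75 and 0.69 (limma, adjusted p = 3.07e-09 and 7.61e-09, standard error 0.05 each).

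Cyba, which stabilizes the catalytic subunit in the membrane and docks Ncf1, moved the other way. The gene (ENSMUSG00000006519, chromosome 8, 122424776 to 122432930, minus strand) had 533, 505, 580, 551 and 529 FPKM in control TAMs, the highest level of the 9 genes. It had 337, 304, 311, 330 and 327 FPKM with miR-144 and 304, 286, 325, 315 and 336 FPKM with miR-451a. All 10 miRNA samples lay below the control samples. The means fell from 539 ± 28 FPKM to 322 ± 13.8 and 313 ± 19.1 FPKM (SD, n = 5 each), log2 fold changes of -0.74 and -0.78 (limma, adjusted p = 2.38e-09 and 1.24e-09, standard error 0.05 each).

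The RNA levels of the 2 membrane subunits were more alike in the miRNA groups. Protein was not measured in these samples, and a ratio of RNA does not give the ratio of the subunits in the enzyme. Control TAMs had 2.64 to 3.25 times as much Cyba as Cybb per length (median 2.87), whereas the ratio was 0.934 to 1.16 with miR-144 (median 1.01) and 0.906 to 1.14 with miR-451a (median 1.05). A ratio of 2 genes within a sample does not change when the whole sample is rescaled. The log2 ratio was 1.53 ± 0.12 in control TAMs, 0.04 ± 0.11 with miR-144 and 0.05 ± 0.15 with miR-451a (SD, n = 5 each). The differences of -1.50 and -1.48 had p = 0.00794 (exact permutation test, two-sided, all 252 splits, which allow no smaller p) and an adjusted p = 0.0119 over the 12 ratio tests. Cyba was lower and Cybb higher in every miRNA sample than in any control sample. The ratio therefore had to separate, and this p adds no support beyond that of the 2 genes. Between miR-451a and miR-144 the ratio differed by 0.02 (exact permutation p = 0.849).

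Ncf1, the organizer that bridges the cytosolic complex to Cyba, was higher in both miRNA groups. The gene (ENSMUSG00000015950, chromosome 5, 134220053 to 134229625, minus strand) had 106, 106, 93.6, 93.5 and 109 FPKM in control TAMs, 145, 148, 130, 134 and 156 FPKM with miR-144, and 153, 148, 138, 130 and 160 FPKM with miR-451a. No miRNA sample reached down to the control range. The means were 102 ± 7.46, 143 ± 10.5 and 146 ± 11.8 FPKM (SD, n = 5 each), with log2 fold changes of 0.49 and 0.52 (limma, adjusted p = 1.01e-05 and 5.17e-06, standard error 0.07 each). In the longest Ncf1 transcript, 8.15% of 50-base stretches also occur in other genes, mostly Gtf2ird2 on the opposite strand, which had 1.41 to 3.91 FPKM.

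Ncf4, which binds phosphoinositides of the phagosome and belongs to the same cytosolic complex as Ncf1, was lower. The gene (ENSMUSG00000071715, chromosome 15, 78244801 to 78262580, plus strand) had 89.3, 84.5, 89.5, 90.1 and 86.2 FPKM in control TAMs, 68.6, 68.3, 66.7, 65.8 and 73.3 FPKM with miR-144, and 65.9, 69.6, 65.8, 63.3 and 71.2 FPKM with miR-451a. Every control sample lay above every miRNA sample, although the difference was the smallest of the 7 that passed on this scale. After median centring Ncf1 had the smallest, at 0.35 and 0.37 beside -0.49 and -0.53 for Ncf4. The means fell from 87.9 ± 2.46 FPKM to 68.5 ± 2.89 and 67.2 ± 3.18 FPKM (SD, n = 5 each), log2 fold changes of -0.36 and -0.38 (limma, adjusted p = 6.73e-07 and 2.66e-07, standard error 0.04 each). The ratio of Ncf4 to Ncf1 went from 0.791 to 0.963 in control TAMs to 0.46 to 0.512 with miR-144 and 0.43 to 0.486 with miR-451a. The differences of the log2 ratio, -0.85 and -0.91, had p = 0.00794 each (exact permutation test, adjusted p = 0.0119). This p was fixed in advance, because Ncf4 was lower and Ncf1 higher in every miRNA sample than in any control sample.

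Rac2, the hematopoietic Rac GTPase that switches the assembled oxidase on, was higher in both miRNA groups. The gene (ENSMUSG00000033220, chromosome 15, 78559167 to 78572783, minus strand) had 70.4, 65.1, 68.1, 60.3 and 72.9 FPKM in control TAMs, 111, 114, 104, 105 and 121 FPKM with miR-144, and 112, 111, 107, 104 and 122 FPKM with miR-451a. The control samples lay below all others. The means were 67.4 ± 4.87, 111 ± 6.72 and 111 ± 6.63 FPKM (SD, n = 5 each), and the log2 fold change was 0.72 in both comparisons (limma, adjusted p = 2.29e-08 and 2.15e-08, standard error 0.06 each). Of its 50-base stretches, 1.34% occur in transcripts of other genes, mostly Epg5.

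The 3 oxidase genes that rose did not rise by the same amount. Ncf1 rose less than Cybb, so that the ratio of Ncf1 to Cybb fell from 0.511 to 0.57 in control TAMs to 0.421 to 0.478 with miR-144 and 0.47 to 0.498 with miR-451a. The log2 ratio differed from control by -0.26 and -0.17 (exact permutation p = 0.00794 each, adjusted p = 0.0119). Between miR-451a and miR-144 it differed by 0.09 (exact permutation p = 0.0397), and did not pass after adjustment over the 12 ratio tests (adjusted p = 0.0529). Leaving out miR-144 replicate 4 or 5 brought this last difference past the threshold, at 0.10 and 0.11.

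**Figure D2:**
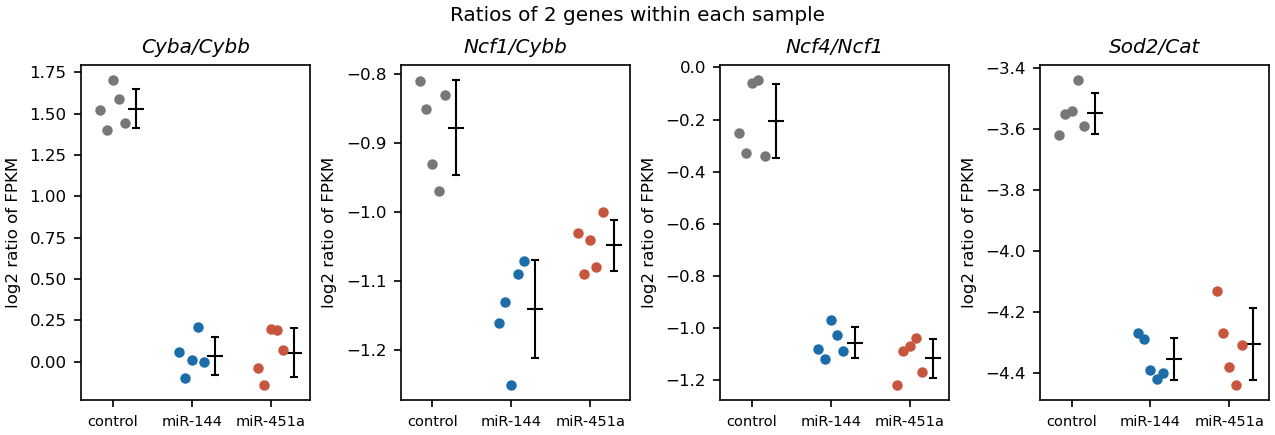
Log2 ratio of the FPKM of 2 genes in each sample (vertical axis, not starting at 0), with the group mean and SD in black, for Cyba over Cybb, Ncf1 over Cybb, Ncf4 over Ncf1 and Sod2 over Cat. The Cyba to Cybb ratio drops from a mean of 1.53 in control TAMs to 0.04 and 0.05, and in all 4 panels the control samples sit above every miRNA sample.

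Hvcn1 showed the largest change of the 8 genes tested. The gene (ENSMUSG00000064267, chromosome 5, 122206804 to 122242297, plus strand) had 87.9, 81.5, 94.2, 92.8 and 92.2 FPKM in control TAMs, 30.5, 32.1, 32.6, 33.3 and 32.5 FPKM with miR-144, and 31.3, 31.5, 32.7, 31.7 and 32.8 FPKM with miR-451a. All miRNA samples lay in a narrow band far below the controls. The means were 89.7 ± 5.16, 32.2 ± 1.07 and 32 ± 0.731 FPKM (SD, n = 5 each), so that control TAMs had 2.79 and 2.81 times the level of the miRNA groups. On the log2 scale it differed by -1.45 and -1.46 (limma, adjusted p = 9.5e-14 and 7.79e-14, standard error 0.04 each), lower than those of all but 1.61% and 1.66% of the genes tested. The longest Hvcn1 transcript shares 52.1% of its 50-base stretches with other genes, mostly Tctn1 on the opposite strand, which had 2.04 to 3.18 FPKM. The strandedness of the libraries is not given in the sources used here. The share of Hvcn1 reads that belong to Tctn1 was not tested.

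Sod2 makes hydrogen peroxide from superoxide in the mitochondria, and Cat destroys hydrogen peroxide in peroxisomes. Cat (ENSMUSG00000027187, chromosome 2, 103453849 to 103485160, minus strand) had 70.6, 71.9, 70.3, 67.1 and 74.1 FPKM in control TAMs, 110, 111, 119, 119 and 118 FPKM with miR-144, and 111, 110, 114, 111 and 110 FPKM with miR-451a. Its means of 70.8 ± 2.55, 116 ± 4.51 and 111 ± 1.35 FPKM (SD, n = 5 each) gave log2 fold changes of 0.70 and 0.65 (limma, adjusted p = 3.88e-11 and 9.66e-11, standard error 0.03 each). The control samples were below all miRNA samples.

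Sod2 (ENSMUSG00000006818, chromosome 17, 13006846 to 13040063, plus strand) stayed close to 6 FPKM throughout. It had 5.76, 6.12, 6.03, 6.18 and 6.14 FPKM in control TAMs, 5.71, 5.66, 5.7, 5.54 and 5.61 FPKM with miR-144, and 6.32, 5.73, 5.46, 5.14 and 5.55 FPKM with miR-451a. The miR-144 samples lay just below the controls, whereas the miR-451a samples overlapped them. The log2 fold changes were -0.08 with miR-144 (95% interval -0.17 to 0.00, adjusted p = 0.0756 in limma) and -0.09 with miR-451a (95% interval -0.17 to -0.00, adjusted p = 0.0642 in limma). This call depended on the scaling. After median centring of the samples, the fold changes were -0.22 and -0.23 (limma, adjusted p = 0.000123 and 6.6e-05), and after rescaling to TPM they were -0.03 and -0.02 (adjusted p = 0.638 and 0.737).

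The ratio of Sod2 to Cat, which does not depend on the scaling of a sample, was 0.0816 to 0.0921 in control TAMs, 0.0466 to 0.0518 with miR-144 and 0.0462 to 0.057 with miR-451a. The log2 ratio differed from control by -0.81 and -0.76 (exact permutation p = 0.00794 each, adjusted p = 0.0119). With miR-144 this p was fixed in advance, because every miR-144 sample had less Sod2 and more Cat than any control sample. Between the miRNA groups the log2 ratio differed by 0.05 (exact permutation p = 0.476).

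Nox1, the homolog of Cybb that is best known from colon epithelium, was at the limit of detection. The gene (ENSMUSG00000031257, chromosome X, 134086421 to 134221956, minus strand) was listed at 0 in all 5 control samples. It had 0.0818, 0.0336, 0.0291, 0 and 0.0793 FPKM with miR-144 and 0.019, 0.0517, 0.0639, 0.022 and 0.013 FPKM with miR-451a. With 3 fragments as the smallest level that the depth can show, the floor of Nox1 was 0.0384 to 0.075 FPKM, and 12 of the 15 samples were at or under it. The values were thus too near the floor for a fold change to be given. Even so, every miR-451a sample and most miR-144 samples lay above the 0 of control TAMs. In a limma fit without the filter on low values, Nox1 had an adjusted p of 0.0275 with miR-144 and 0.0887 with miR-451a, which rests on these few fragments. The floor covers counting error only. In addition, 13.9% of 50-base stretches in the longest Nox1 transcript occur in other genes, mostly the overlapping Cstf2.

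The order of the levels changed between the groups. In control TAMs it was Cyba, Cybb, Ncf1, Hvcn1, Ncf4, Cat, Rac2, Sod2 and Nox1, with overlapping sample ranges for Ncf1 and Hvcn1, for Hvcn1 and Ncf4 and for Cat and Rac2. With miR-144 it was Cyba, Cybb, Ncf1, Cat, Rac2, Ncf4, Hvcn1, Sod2 and Nox1, where Cyba overlapped Cybb and Cat overlapped Rac2. With miR-451a the order was that of miR-144, except that Rac2 and Cat, whose ranges overlapped, changed places.

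TAMs of the miR-451a group were then compared with those of the miR-144 group. None of the 8 genes passed in limma (smallest adjusted p = 0.974), and 0 of the 8 had an unadjusted p under 0.05. Over all genes, 0% passed and 596 of 11419 (5.22%) had an unadjusted p under 0.05. The differences between the miRNA groups lay from -0.06 for Cybb to 0.03 for Ncf1 on the log2 scale. Their 95% intervals reached from -0.16 to 0.17, so a difference within these bounds was not detectable with 5 samples a group.

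**Figure D3:**
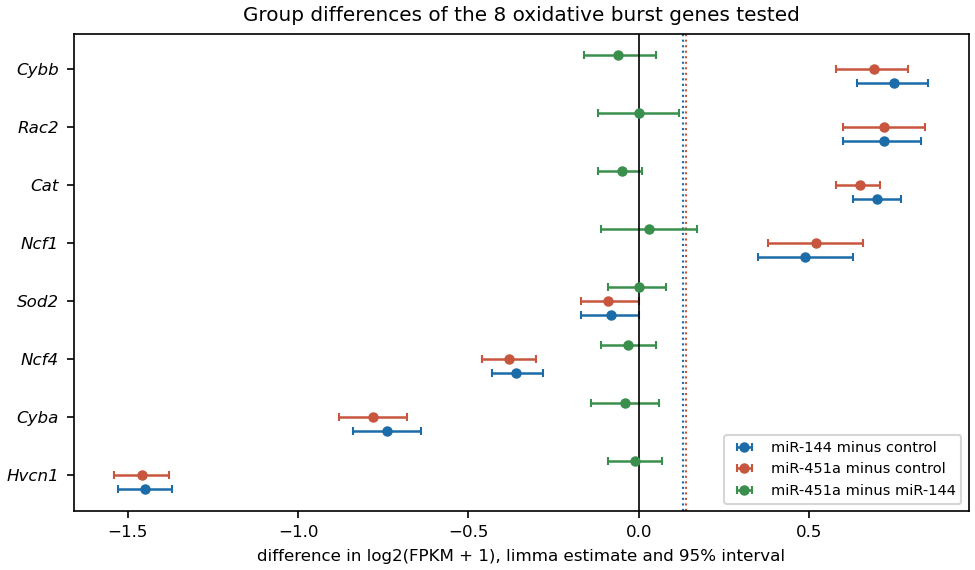
Difference in log2(FPKM + 1) between groups (horizontal axis), as the limma estimate with its 95% interval, for the 8 genes tested. Dotted lines mark the median of all genes (0.13 for miR-144 and 0.14 for miR-451a against control), Cybb, Rac2, Cat and Ncf1 lie to the right of them, Ncf4, Cyba and Hvcn1 lie left of 0, and all differences between the miRNA groups cross 0.

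Markers of other cell types were measured in the same samples. Of the neutrophil markers, 10 of 11 stayed under 1 FPKM in all 15 samples, with S100a8 at most 0.788 FPKM, Ly6g at most 0.0594 FPKM and Retnlg at 0. The summed level of that list was 65 to 79.3 FPKM in control TAMs, 46.4 to 52.4 with miR-144 and 44.3 to 53.3 with miR-451a, and nearly all of it was Csf3r, whose means were 70.4, 49 and 48.3 FPKM. The 4 B cell markers summed to 0.138 to 0.375 FPKM in control TAMs, 1.11 to 1.45 with miR-144 and 1.17 to 1.73 with miR-451a. Nearly all of that sum was Cd79b, whose means were 0.185, 1.15 and 1.38 FPKM, and Ms4a1 reached at most 0.0142 FPKM. Of the hepatocyte markers, 5 of 6 were at 0 in all samples (Alb, Apoa1, Ttr, Serpina1a and Apoc3).

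Other lists moved with the groups. Among the macrophage markers, summing to 1978 to 2130 FPKM in control TAMs, 2169 to 2253 with miR-144 and 2098 to 2248 with miR-451a, Adgre1, which encodes the sorted antigen F4/80, had means of 137, 361 and 354 FPKM. Itgam, which encodes CD11b, had means of 25.5, 63.8 and 53.4 FPKM, Fcgr1 of 18, 122 and 118 FPKM, and Cd68 of 1444, 919 and 910 FPKM. The Kupffer cell list summed to 3.3 to 3.75 FPKM in control TAMs, 17 to 49.9 with miR-144 and 15.7 to 47 with miR-451a, nearly all of it Cd5l, with Clec4f at 0 in all samples and 3 of 4 markers under 1 FPKM. The monocyte list summed to 4014 to 5782 FPKM in control TAMs, 7.34 to 12.4 with miR-144 and 6.86 to 11.5 with miR-451a, and the control level was almost entirely Chil3, with means of 4789, 0.352 and 0.431 FPKM. The other 3 monocyte markers had higher means in the miRNA groups, at 0.161, 1.05 and 1.39 FPKM for Ccr2, 3.05, 8.46 and 7.19 FPKM for Plac8 and 0.00617, 0.117 and 0.164 FPKM for Ly6c2. The endothelium list summed to 2.72 to 3.38 FPKM in control TAMs, 3.53 to 4.5 with miR-144 and 3.41 to 5.37 with miR-451a, mostly Kdr, whose means were 2.8, 3.84 and 4.07 FPKM. The epithelium list summed to 0.354 to 0.651, 0.861 to 1.58 and 0.636 to 1.3 FPKM, so that miR-451a samples overlapped the controls, and it was all Krt19, with Epcam, Krt8 and Krt18 at 0. The T and NK cell and erythroid lists summed to at most 0.0692 and 0.0926 FPKM. The part of any of these lists in the changes of the oxidase genes was not tested. In bulk samples, a change in the mix of macrophage types and a change of the RNA within a type cannot be told apart.

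The remaining genes of the pathway were described by 3 lists. Among other NADPH oxidases and their partners, Nox3, Nox4, Duox1, Duox2, Duoxa1, Duoxa2, Noxo1 and Noxa1 had group means of at most 0.763 FPKM and were not tested. Cybc1, a chaperone of the membrane heterodimer, rose from 13.6 to 15.2 FPKM in control TAMs to 17.6 to 19.2 with miR-144 and 17.9 to 19 with miR-451a, log2 fold changes of 0.34 and 0.35 (limma, adjusted p = 4.51e-07 and 3.49e-07).

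Among 23 genes of assembly and activation, 21 were tested. With miR-144, 13 rose, 3 fell and 5 did not pass, and with miR-451a, 11 rose, 3 fell and 7 did not pass. Of all genes, 47.1% were called higher and 20.1% lower with miR-144 and 48.1% and 20.3% with miR-451a. The median log2 fold changes were 0.24 and 0.28, beside 0.13 and 0.14 for all genes. Under median centring, 10 rose and 6 fell in each comparison beside 30.8% and 30.7% of the transcriptome for miR-144 and 31.3% and 31.8% for miR-451a. Of the genes called here, Akt1 with miR-144 (0.09 to -0.04) and Pik3c3 with miR-451a (0.12 to -0.02) changed sign. Pik3cg, the phosphoinositide kinase downstream of chemoattractant receptors, rose from 5.14 to 5.85 FPKM in control TAMs to 13.8 to 15.5 with miR-144 and 14.6 to 16.2 with miR-451a, log2 fold changes of 1.26 and 1.33 (limma, adjusted p = 1.09e-12 and 5.45e-13). Fpr2, a formyl peptide receptor that triggers the burst, was at 0 to 0.0323 FPKM in control TAMs and reached 1.47 to 2.92 FPKM with miR-144 and 1.13 to 2.38 FPKM with miR-451a. It passed the filter on low values only through the miRNA groups, so it had to differ, and the 13 and 11 rises include it.

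The kinase Prkcd, which phosphorylates the cytosolic subunits, fell from 145 to 156 FPKM in control TAMs to 83.8 to 93.9 with miR-144 and 81 to 91.2 with miR-451a, log2 fold changes of -0.76 and -0.79 (limma, adjusted p = 2.74e-10 and 1.74e-10). Dock2, an exchange factor of Rac, fell from 54.2 to 58.4 FPKM to 40.2 to 46.1 and 39.6 to 45.5 FPKM, log2 fold changes of -0.39 and -0.40 (limma, adjusted p = 1.21e-06 and 8.8e-07). Rac1, the broadly expressed homolog of Rac2, was chosen after its values were seen. It fell into separate low and high levels within every group, at 27 and 27.2 against 56.6, 57.1 and 59.7 FPKM in control TAMs, 33.8, 34.2 and 34.7 against 77.9 and 80.7 FPKM with miR-144, and 33, 35 and 35.1 against 78.8 and 79.4 FPKM with miR-451a. The Rac1 difference from control was within this spread (limma, adjusted p = 0.707 and 0.703). C5ar1, a receptor of complement fragments, had 163, 166, 158, 162 and 19.7 FPKM with miR-451a, against 59.5 to 68.1 FPKM in control TAMs and 158 to 186 FPKM with miR-144, and was called with miR-144 but not with miR-451a, where sample 5 lay far below the others. Without that sample (miR-451a replicate 5) its log2 fold change went from 0.74 (limma, adjusted p = 0.155) to 1.33 (adjusted p = 9.84e-12). C5ar1 was also chosen after its values were seen, as was Gpx1 among the peroxide genes.

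Of 18 genes that handle superoxide and peroxide, 17 were tested. With either miRNA, 6 rose, 7 fell and 4 did not pass, and the median log2 fold changes were 0.02 and -0.05, beside 0.13 and 0.14 for all genes. The shares of all genes were 47.1% higher and 20.1% lower with miR-144 and 48.1% and 20.3% with miR-451a. The 6 rises with miR-451a include Gpx1, a cytosolic glutathione peroxidase with 469, 56.1, 61.2, 50.6 and 64.3 FPKM in control TAMs, where sample 1 stood far above the others. It had 279, 49, 203, 212 and 291 FPKM with miR-144, and 263, 290, 226, 217 and 335 FPKM with miR-451a. With miR-144 it did not pass (limma, adjusted p = 0.14), but leaving out control replicate 1 (log2 fold change 1.60) or miR-144 replicate 2 (1.45) brought it past the threshold. With miR-451a the log2 fold change was 1.57 (limma, adjusted p = 0.0251), and the call was lost when any of control replicates 2, 3, 4 and 5, or miR-451a replicate 5, was left out (1.37 to 1.48). Gpx3, a secreted glutathione peroxidase, rose from 22.1 to 27 FPKM in control TAMs to 73.8 to 84.6 with miR-144 and 86 to 92.7 with miR-451a, log2 fold changes of 1.64 and 1.80 (limma, adjusted p = 3.81e-13 and 1.34e-13). Sod1, the cytosolic superoxide dismutase, rose from 10.1 to 12.9 FPKM to 25.7 to 29.6 FPKM in both miRNA groups, a log2 fold change of 1.16 (limma, adjusted p = 1.63e-10 and 1.62e-10).

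Sod3, the extracellular superoxide dismutase, fell from 12.4 to 17.3 FPKM in control TAMs to 1.77 to 4.56 with miR-144 and 2.32 to 3.9 with miR-451a, log2 fold changes of -1.97 and -2.05 (limma, adjusted p = 7.39e-07 and 4.41e-07). Txn1, the cytosolic thioredoxin, fell from 164 to 210 FPKM to 69.9 to 87.4 and 61.5 to 77.3 FPKM, log2 fold changes of -1.24 and -1.36 (limma, adjusted p = 1.37e-09 and 4.36e-10). The 3 superoxide dismutases thus went separate ways, with Sod1 higher, Sod3 lower and Sod2 close to its control level in these units. Under median centring the split of this list was 3 higher and 8 lower with miR-144 and 5 higher and 11 lower with miR-451a, beside 30.8% and 30.7% of all genes, and 31.3% and 31.8%.

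**Figure D4:**
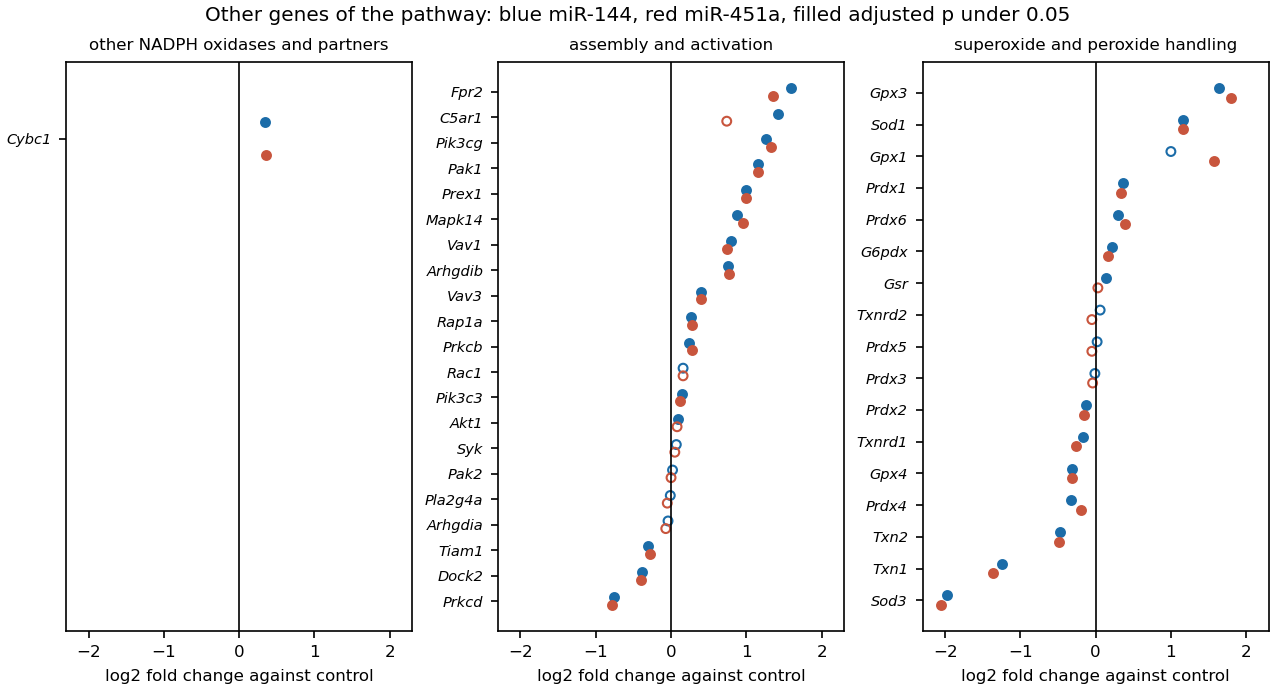
Log2 fold change against control (horizontal axis) of the tested genes reported here from the 3 lists of other pathway genes, with miR-144 in blue, miR-451a in red, and filled points for an adjusted p under 0.05 in limma. Cybc1 and most assembly genes lie to the right of 0, while the list of superoxide and peroxide handling reaches from Sod3 (-1.97 and -2.05) to Gpx3 (1.64 and 1.80), and the position of Fpr2 depends on the pseudocount because its control level is near 0.

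The genes with the most similar profiles were sought by the root mean square difference of log2(FPKM + 1) over the 15 samples, after the control mean of each gene was subtracted. For Cybb these were Ifi204 and Elmo1 (0.04 each), where the median gene was at 0.52. Among the 8 tested genes of the system, Cybb was nearest to Rac2 (0.07), and 0.131% of all tested genes were nearer to Cybb. The same share was 0.114% for Rac2 and 1.19% for Cat. It was larger for the others, at 3.71% for Hvcn1, 6.99% for Cyba, 12.1% for Ncf1, 15.5% for Ncf4 and 39.8% for Sod2. The genes of the system thus did not share a single profile. For Cyba the nearest genes were Cyb5r3 and Manbal (0.05 each), and for Hvcn1 they were Ap2m1 and Pld3 (0.07 each). Ncf1 was closest to Rnf114 and Anxa6, Ncf4 to Myo1g and Gusb, Sod2 to Rad23b and Hdgf (0.04 each), Rac2 to Zfp710 (0.04) and Adam15 (0.06), and Cat to Ms4a14 and Inpp5k (0.05 each). With most of the transcriptome changed between groups, these likenesses rest mainly on the shift from control to the miRNA groups and are given as a description.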

How the data were processed

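RNA-seq was analysed in 15 samples of sorted TAMs, 5 per group, grouped by the labels. The authors used an Illumina HiSeq sequencer, and the deposited table holds FPKM of each gene in each sample. The submitters' processing notes list FastQC 0.11.2, STAR and StringTie. Genome build, annotation and library strandedness are not given in the sources used here. The genes and lists were chosen with earlier results of these data known, and so were the motifs.

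Values were taken as log2(FPKM + 1) and compared with limma 3.58.1 in R 4.3.3, fitting 3 group means at once to the 11419 genes whose mean reached 1 FPKM, with a trend of variance on mean and p-values adjusted over all of these genes (Benjamini-Hochberg). Fold changes are on that scale, which understates changes of low genes. Read counts could not be recovered from the steps of the values, so count models were left out. Within-sample ratios used two-sided exact permutation tests. A simulated miR-144 to control comparison of 11419 genes was used to test the limma step. It called 49 of 50 genes with a log2 change of 1 and 35 of 50 with a log2 change of 0.25, beside 8 false calls. Depth came from protein-coding genes with 1 transcript over 1000 bases. Some genes of the pathway and marker lists are not reported here. Outside the 9 genes, the rule for naming genes of a pathway list was the 2 largest rises and the 2 largest falls that passed in both comparisons. Other genes were named outside this rule. Rac1, C5ar1 and Gpx1 were chosen after their values were seen, and Akt1 and Pik3c3 for their change of sign under median centring. Oxidase genes below the filter, Noxo1 among them, were named without a test. Alternatives were other pseudocounts, filters and scalings, the replicate block, no trend, 2 groups per fit, a minimum log2 fold change of 0.5 and each sample left out. Python 3.11.15, numpy 2.4.6, pandas 2.3.3 and matplotlib 3.10.9 were used.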

Additional observations from a re-analysis of the deposited data

Results flagged for a closer look

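Among the 66 groups of 5 values checked for the 9 oxidative burst genes, the 4 ratios and 9 other pathway genes, no sample stood apart. C5ar1 and Gpx1 were named after their outlying values had been seen, so no chance rate is given for them. C5ar1 was at 19.7 FPKM in miR-451a replicate 5, where the nearest sample of that group was at 158 FPKM. Gpx1 was at 469 FPKM in control replicate 1, where the nearest control sample was at 64.3 FPKM.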

How the results depend on the processing

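The 7 genes called in each comparison with control kept their direction and stayed past the threshold under the 19 alternatives that refit their fold changes, whereas a minimum log2 fold change of 0.5 dropped Ncf4 in both comparisons and Ncf1 with miR-144. The lowest and highest log2 fold changes were 0.55 and 0.92 for Cybb, -0.93 and -0.67 for Cyba and -1.60 and -1.40 for Hvcn1. Sod2 passed after median centring or quantile normalization, with miR-144 also in a fit over only the 2 groups compared, and with miR-451a also without control replicate 1 or miR-451a replicate 1. The sample numbers were not taken as pairs, since not every same-numbered pair correlated by over 0.1. The correlations of their deviations over all tested genes were -0.0122 (control and miR-144), 0.14 (control and miR-451a) and 0.101 (miR-144 and miR-451a) on average, with the 5 control and miR-451a pairs all positive (0.0658 to 0.264). In each of those pairs of groups 0, 3 and 1 of 5 samples correlated best with their own number. With the number as a replicate block in limma, 4 higher and 3 lower genes passed in each comparison with control. For the ratios, pairing leaves a smallest p of 0.0625, so none of the differences from control could pass under the block (Cyba/Cybb -1.50 and -1.48, Ncf1/Cybb -0.26 and -0.17, Ncf4/Ncf1 -0.85 and -0.91, Sod2/Cat -0.81 and -0.76). Leaving out a sample moved the Ncf1/Cybb difference between the miRNA groups to between 0.06 and 0.11. Median centring raised the number of falling assembly genes from 3 to 6 in both comparisons, lowered the rising superoxide and peroxide genes from 6 to 3 with miR-144 and raised the falling ones from 7 to 11 with miR-451a. Depth limits Nox1, whereas the other 8 genes exceeded 3 fragments everywhere.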

Other observations

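Sample 5 had the highest Cybb, Ncf1 and Rac2 level of its group in all 3 groups. For Cybb these levels were 194, 327 and 321 FPKM, for Ncf1 109, 156 and 160 FPKM, and for Rac2 72.9, 121 and 122 FPKM in control, miR-144 and miR-451a TAMs. Cybb was highest in sample 5, then 2, then 1 in every group, and Cyba was lowest in sample 2 of every group, at 505, 304 and 286 FPKM. The Ncf1/Cybb ratio was higher with miR-451a than with miR-144 in all 5 same-numbered pairs (exact sign-flip permutation p = 0.0625, the smallest that 5 pairs allow). Whether same-numbered samples share a source is not given in the sources used here. Noxo1, an organizer homologous to Ncf1, was below the filter on low values, with 0.231 ± 0.0514, 0.636 ± 0.113 and 0.763 ± 0.107 FPKM (SD, n = 5 each).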
